A study of Mus musculus with 48 samples.

Results

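The genes described here are 10 members of the circadian clock and its output in liver: the activators Arntl (also called Bmal1) and Npas2, the repressors Per1, Per2 and Per3, the nuclear receptors Nr1d1 and Nr1d2 (REV-ERBα and REV-ERBβ), and the PAR bZIP factors Dbp, Tef and Hlf. They were chosen by name as a readout of the time of sampling across groups and between mice, and all 10 were found by symbol among the 55414 genes of the liver count table. The mice were FCG mice, a cross that separates gonad type from sex chromosomes, on the C57BL/6 background. In them Sry is deleted from the Y chromosome and carried, where present, by an autosomal transgene, so that XX and XY mice each come with ovaries (Ov) or testes (Te). The 8 groups of 6 mice were XX Ov (genotype XX), XX Te (XX;SryTg), XY Ov (XY-) and XY Te (XY-;SryTg), each Intact or gonadectomized (GDX). GDX mice lost their gonads at 75 days of age. All 48 mice started a high-fat diet (HFD) with 60% of calories from fat at 15 to 17 weeks of age, and by the labels intact mice received it for 11 weeks and GDX mice for 15 weeks (the methods give slightly different durations). Mice were fasted before sacrifice. The time of day at which livers were taken is not given in the sources used here. Intact and GDX mice therefore differed in gonads, age, weeks of diet and cohort, and possibly in the time of sampling, and these cannot be told apart.

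The mammalian clock is a transcriptional feedback loop. ARNTL pairs with CLOCK or NPAS2 on E-boxes and drives the Per, Cry, Nr1d and PAR bZIP genes. PER and CRY proteins then repress this drive, the NR1D receptors repress Arntl and Npas2 through ROR elements, and DBP, TEF and HLF activate genes through D-boxes, Per genes among them. In liver, transcripts of Dbp, Nr1d1 and Per3 peak at phases away from the Arntl and Npas2 peak, and feeding, fasting and glucocorticoids can reset the loop, with Per1 and Per2 responding directly to glucocorticoids and other acute signals.

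RefSeq promoter windows (GRCm38.p6, 250 bases before to 50 after the start site; the counts use GRCm39) were at hand for 9 of the 10 genes, in 12 windows. They were searched on both strands for the E-box CACGTG, the D-box TTACGTAA or TTATGTAA, the ROR element TAGGTCA or TGGGTCA and the CRE (cyclic AMP response element) TGACGTCA. Of all 32851 windows in the table, 7.15% held this E-box, 1.06% a D-box, 6.45% a ROR element and 1.79% the CRE. Matches were found in 6 of the 12 windows, and 5 of these are shown, for genes whose levels are given afterwards. Each match is in capitals and 5′ to 3′ on the gene's own strand. The windows of Per3, Per1, Tef and Arntl hold letters of the feedback loop as described above. That of Hlf holds the CRE, which is not part of that description. Per3 carried TTATGTAA at 2 places, starting 205 and 158 bases before the start site (chr4:151044616-151044915, minus strand). Per1 carried CACGTG 166 bases before the start site of its first window (chr11:69098699-69098998, plus strand). Tef carried it 127 bases before its first start site (chr15:81802423-81802722, plus strand) and 138 bases before its second. Arntl carried TAGGTCA 30 bases after its second start site (chr7:113207261-113207560, plus strand). Hlf carried TGACGTCA 9 bases before its start site (chr11:90390868-90391167, minus strand). A match is a description of the letters, not of a bound site.
Per3: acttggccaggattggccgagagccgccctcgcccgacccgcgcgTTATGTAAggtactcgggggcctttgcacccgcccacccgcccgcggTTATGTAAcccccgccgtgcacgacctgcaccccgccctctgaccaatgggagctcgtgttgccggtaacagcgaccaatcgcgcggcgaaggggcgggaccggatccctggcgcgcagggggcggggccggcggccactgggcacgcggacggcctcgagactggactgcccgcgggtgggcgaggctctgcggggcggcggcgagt
Per1: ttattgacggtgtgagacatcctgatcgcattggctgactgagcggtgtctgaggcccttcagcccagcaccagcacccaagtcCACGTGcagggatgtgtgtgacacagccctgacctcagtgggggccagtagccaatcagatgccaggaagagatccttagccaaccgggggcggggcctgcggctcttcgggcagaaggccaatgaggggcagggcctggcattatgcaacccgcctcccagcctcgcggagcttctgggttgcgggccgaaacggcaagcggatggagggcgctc
Tef: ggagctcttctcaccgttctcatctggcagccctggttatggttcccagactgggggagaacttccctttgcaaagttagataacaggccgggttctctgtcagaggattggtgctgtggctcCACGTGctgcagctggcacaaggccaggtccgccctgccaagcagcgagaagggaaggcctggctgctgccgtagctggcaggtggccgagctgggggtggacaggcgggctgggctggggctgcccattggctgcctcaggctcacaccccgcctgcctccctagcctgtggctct
Arntl: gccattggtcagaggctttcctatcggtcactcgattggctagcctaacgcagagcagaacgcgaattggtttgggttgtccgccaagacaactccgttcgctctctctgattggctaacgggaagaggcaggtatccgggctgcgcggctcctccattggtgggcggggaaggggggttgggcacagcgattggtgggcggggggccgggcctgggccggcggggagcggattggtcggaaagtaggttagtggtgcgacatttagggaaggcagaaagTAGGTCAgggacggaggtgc
Hlf: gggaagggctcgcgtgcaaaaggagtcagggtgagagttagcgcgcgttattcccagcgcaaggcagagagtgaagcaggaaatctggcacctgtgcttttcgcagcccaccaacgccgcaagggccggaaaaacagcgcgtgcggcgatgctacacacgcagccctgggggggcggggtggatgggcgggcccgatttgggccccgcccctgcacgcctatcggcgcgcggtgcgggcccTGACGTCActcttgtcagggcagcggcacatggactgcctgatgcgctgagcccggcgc

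The libraries held 13071874 to 20045141 reads in genes (median 16577748), so that 3 reads, the limit that a count of 0 allows, corresponded to 0.15 to 0.23 CPM (gene reads scaled to a common library size). Levels are CPM scaled by TMM (trimmed mean of M-values, edgeR), with the mean ± SD over mice, and each mouse was 1 library. Of 15414 genes that passed the filter on low counts, 9 were members; Npas2 was left out, with 0 to 12 reads per mouse. Genes of the X and Y chromosomes matched the labelled chromosomes in every group. Reads outside annotated genes made up 3.47% to 6.20% of a library in intact mice and 8.52% to 11.3% in GDX mice, with no overlap, and the part of this difference in the results was not tested. Tests are edgeR's quasi-likelihood test across all 48 mice, with Benjamini-Hochberg adjustment over all genes tested, and a call is an adjusted p under 0.05. Level differences in a bulk library cannot separate fewer cells of a type from less RNA per cell. The hepatocyte markers summed to 67480 to 156500 CPM in intact and 82500 to 118700 CPM in GDX mice.

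The largest differences among these genes lay between intact and GDX mice. Per2 and Per3, which encode repressors of the clock, rose after GDX in mice with either gonad, Per1 rose less, and Nr1d2, the receptor that represses Arntl, fell by 2.02-fold to 2.62-fold. Arntl and the PAR bZIP genes Dbp and Hlf were not called in either comparison, while Nr1d1 fell and Tef rose by a small margin after castration. The plot of levels by mouse shows the separation for Per2, Per3 and Nr1d2 and the overlap for the others.

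**Figure D1:**
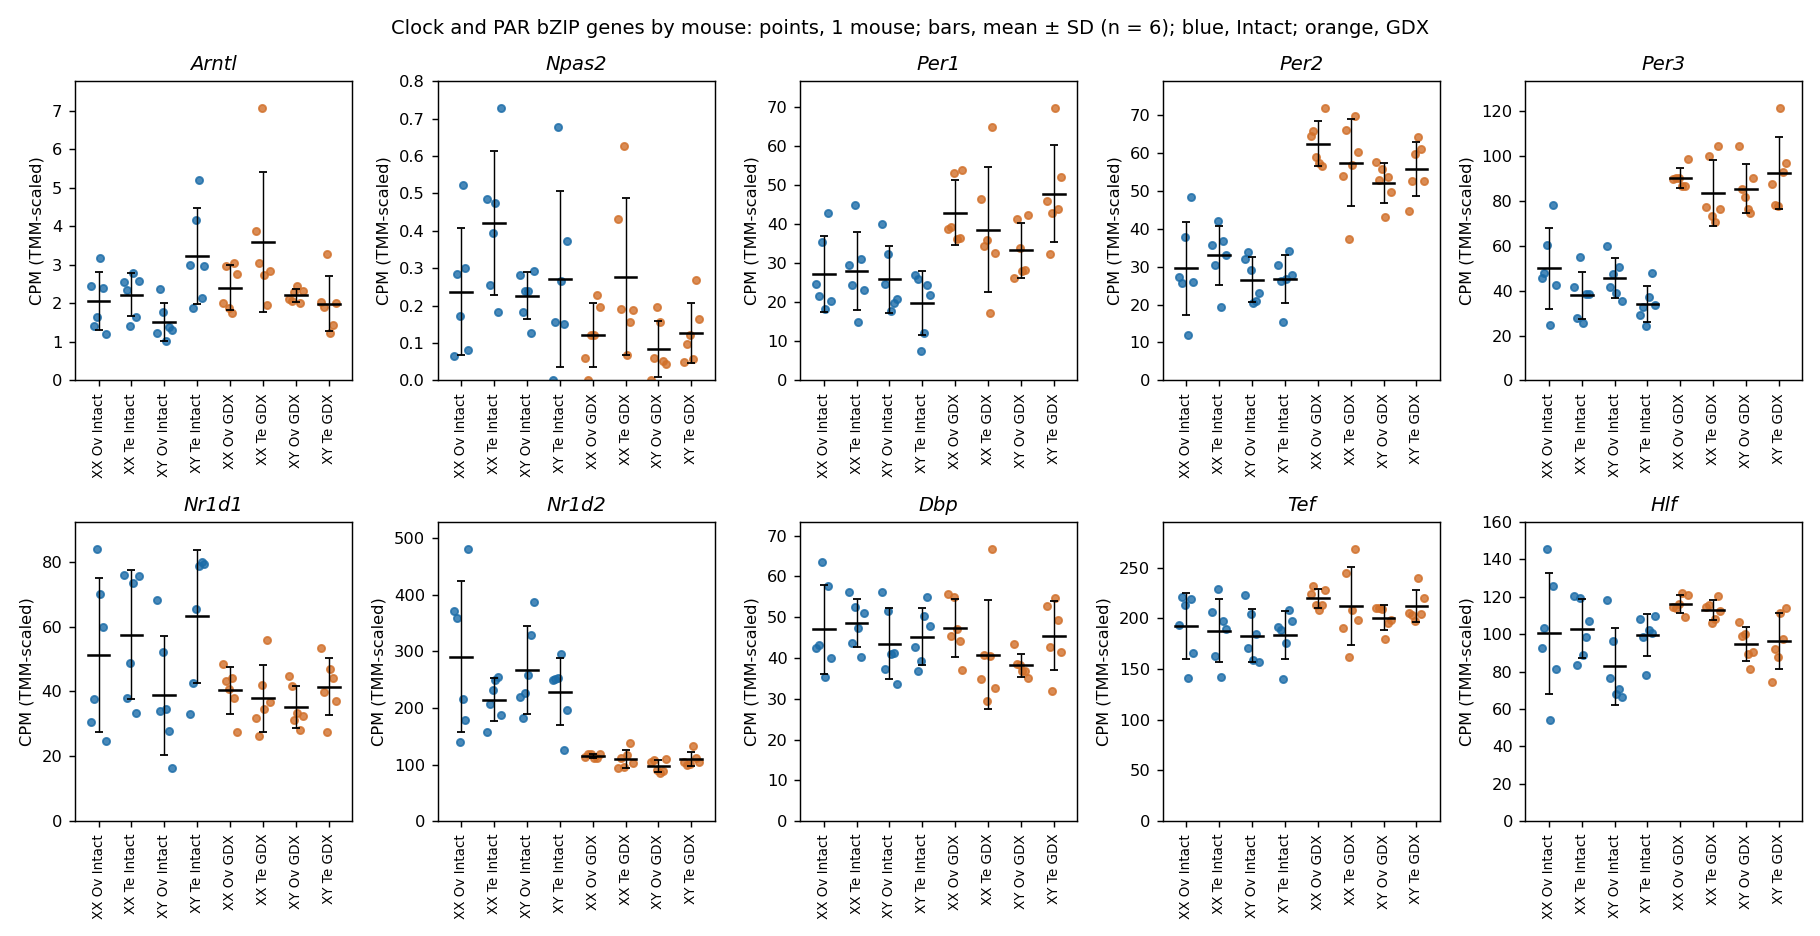
Level of each of the 10 genes in TMM-scaled CPM (vertical axes, linear from 0) by group; points are single mice, horizontal bars the group mean and whiskers the SD (n = 6), with intact mice in blue and GDX mice in orange. Per2 and Per3 are higher and Nr1d2 lower in all 4 GDX groups, while Dbp spans 33.6 to 63.4 CPM in intact and 29.5 to 66.7 CPM in GDX mice.

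Among the activators, Arntl (ENSMUSG00000055116), the core DNA-binding partner of the loop, was covered by 15 to 135 reads per mouse and measured 2.25 ± 0.992 CPM in intact mice (n = 24) and 2.55 ± 1.14 CPM in GDX mice (n = 24). In intact groups its lowest, median and highest values were 1.22, 2.03 and 3.18 CPM in XX Ov, 1.41, 2.45 and 2.78 CPM in XX Te, 1.01, 1.35 and 2.38 CPM in XY Ov, and 1.87, 2.99 and 5.20 CPM in XY Te. In GDX groups they were 1.75, 2.39 and 3.04 CPM in XX Ov, 1.97, 2.94 and 7.06 CPM in XX Te, 2.02, 2.20 and 2.46 CPM in XY Ov, and 1.23, 1.962 and 3.29 CPM in XY Te. Every pair of neighbours in the order of its group means, from XX Te GDX at the top to XY Ov Intact at the bottom, differed by less than their SD. The log2 change was 0.37 ± 0.19 (SE) with ovariectomy (edgeR, adjusted p = 0.0784) and 0.01 ± 0.19 with castration (edgeR, adjusted p = 0.977). Npas2 (ENSMUSG00000026077), the alternative partner of ARNTL, lay near the floor of 3 reads, with medians of 0.261 CPM in intact and 0.121 CPM in GDX mice and a range of 0 to 0.727 CPM, so no fold is given.

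Per2 (ENSMUSG00000055866), a repressor that also responds to fasting and glucocorticoid signals, had lowest, median and highest values of 11.9, 26.6 and 48.3 CPM in Ov Intact mice (n = 12) against 43.1, 56.8 and 71.7 CPM in Ov GDX mice (n = 12). In mice with testes they were 15.3, 30.4 and 42.1 CPM when intact and 37.1, 58.3 and 69.6 CPM after GDX. In each comparison 11 of 12 GDX mice lay above every intact mouse, and 1 overlapped. Per2 rose 2.03-fold with ovariectomy (log2 change 1.02 ± 0.14, edgeR adjusted p = 2.44e-08) and 1.90-fold with castration (0.93 ± 0.14, adjusted p = 3.23e-07). All 12 Te GDX mice lay above all 12 Te Intact mice for Per3 (ENSMUSG00000028957), a repressor often used as a phase marker because its expression is strongly rhythmic. Its lowest, median and highest values were 24.3, 35.4 and 54.9 CPM in Te Intact and 70.6, 82.9 and 121.3 CPM in Te GDX mice. In mice with ovaries they were 24.7, 46.6 and 78.0 CPM when intact and 74.7, 88.2 and 104.5 CPM after GDX, with 10 of 12 GDX mice above every intact mouse. Per3 rose 2.44-fold with castration (1.29 ± 0.13, adjusted p = 4.97e-11) and 1.84-fold with ovariectomy (0.88 ± 0.13, adjusted p = 8.25e-08). Per1 (ENSMUSG00000020893), the acutely inducible repressor, overlapped widely between cohorts, at 25.3 ± 9.18 CPM in intact and 40.7 ± 12.03 CPM in GDX mice (n = 24 each), and rose 1.42-fold with ovariectomy (adjusted p = 0.0159) and 1.82-fold with castration (adjusted p = 0.00015). The call of Per1 with ovariectomy was lost with 1 surrogate variable in the fit (adjusted p = 0.158), as was that of Nr1d1 with castration under library totals (adjusted p = 0.0876).

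Nr1d2 (ENSMUSG00000021775), a heme-binding repressor of Arntl and of lipid genes, moved the other way. Its lowest, median and highest values were 139.5, 242.3 and 481.3 CPM in Ov Intact and 85.2, 110.4 and 118.7 CPM in Ov GDX mice, with no overlap between 12 and 12. In mice with testes they were 125.8, 240.8 and 294.8 CPM when intact and 94.8, 104.9 and 138.5 CPM after GDX, where 10 of 12 GDX mice lay below every intact mouse. Nr1d2 fell by 1.39 on the log2 scale with ovariectomy (SE 0.14, edgeR adjusted p = 1.19e-10) and fell by 1.01 with castration (SE 0.14, adjusted p = 8.25e-08). Its close relative Nr1d1 (ENSMUSG00000020889), usually the more strongly rhythmic of the pair, ranged from 16.5 to 84.0 CPM in intact and from 26.4 to 56.0 CPM in GDX mice. Nr1d1 fell 1.52-fold with castration (60.4 ± 19.5 CPM in Te Intact and 39.7 ± 9.34 CPM in Te GDX, n = 12 each, adjusted p = 0.00586), and with ovariectomy its log2 change was -0.24 ± 0.19 (adjusted p = 0.252), which became -0.59 (adjusted p = 0.00141) with 1 surrogate variable in the fit. The annotated span of Nr1d1 overlaps that of Thra, and whether counting used strand is not stated. Thra itself was not called (log2 change 0.21 with ovariectomy and 0.04 with castration, adjusted p = 0.0886 and 0.761).

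The PAR bZIP factors, which carry clock phase to liver output genes, changed little. Dbp (ENSMUSG00000059824), whose transcript has one of the widest daily swings in liver, measured 46.0 ± 8.02 CPM in intact and 42.9 ± 9.01 CPM in GDX mice (n = 24 each). The 95% interval of its log2 change was -0.30 to 0.12 with ovariectomy and -0.34 to 0.09 with castration. Its span overlaps that of Sphk2, which rose (log2 change 0.70 and 0.36). The spans of Arntl, Npas2, Per2 and Per3 also overlap other annotated genes (Uts2 in the case of Per3), whose levels were not examined. Tef (ENSMUSG00000022389) rose 1.14-fold with castration, from 185.6 ± 26.7 CPM to 211.8 ± 28.1 CPM (n = 12 each, adjusted p = 0.0378), and was not called with ovariectomy (187.5 ± 28.7 CPM to 210.1 ± 14.5 CPM, adjusted p = 0.0691). The castration call of Tef was lost with no filter on low counts (adjusted p = 0.131) and with 1 surrogate variable (adjusted p = 0.0557), and 38 of the 48 fits that left out 1 mouse kept it (adjusted p up to 0.099); it was lost without XX Te Intact replicates 2 or 4, XY Te Intact replicates 3, 4 or 6, XX Te GDX replicates 2 or 5, or XY Te GDX replicates 1, 4 or 6. The ovariectomy changes of Tef, Hlf and Arntl were called with library totals (log2 changes 0.37, 0.41 and 0.56). Hlf (ENSMUSG00000003949) measured 96.5 ± 21.7 CPM in intact and 105.0 ± 13.2 CPM in GDX mice (n = 24 each), with adjusted p = 0.0771 for ovariectomy and 0.734 for castration. Over the 10 genes, 4 of 70 gaps between neighbours in the order of group means exceeded their pooled SD: the gap between the lowest GDX and the highest intact group for Per2 (0.69 on the log2 scale) and Per3 (0.81), the gap between the lowest intact and the highest GDX group for Nr1d2 (0.88), and that between XY Te GDX and XY Ov GDX for Nr1d2 (0.16).

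**Figure D2:**
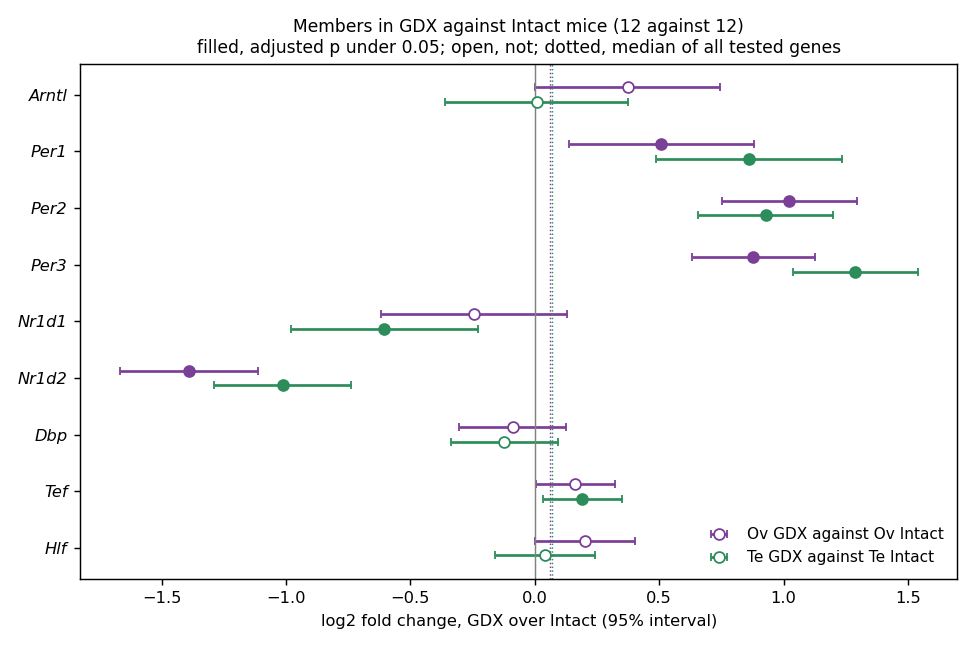
Log2 fold change of the 9 tested genes, GDX over Intact (horizontal axis, with 95% intervals), for mice with ovaries (purple) and testes (green), 12 against 12; filled points have an adjusted p under 0.05 and dotted lines mark the median of all tested genes. Per2 and Per3 lie farthest to the right and Nr1d2 farthest to the left in both comparisons.

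In counts, 4 of 9 members were called with ovariectomy (3 higher, 1 lower) and 6 of 9 with castration (4 higher, 2 lower). Across all genes tested, 69.4% were called with ovariectomy (36.0% higher, 33.4% lower) and 63.3% with castration (33.4% higher, 29.9% lower). The members' shares were 44.4% and 66.7%, below and near these shares, and nothing particular to them is read from the counts. The share of all genes whose ranges lay apart between intact and GDX mice was not computed. Nothing particular to Per2, Per3 or Nr1d2 is therefore read from their separation. The median log2 change over the 9 members was 0.20 with ovariectomy and 0.04 with castration, beside 0.06 and 0.07 over all genes. Scaling by library totals moved all log2 changes up by 0.22 and 0.21 and left the calls of Per1, Per2, Per3 and Nr1d2 in both comparisons. Neutrophil markers also moved with the cohort: their summed level had a median of 23.0 CPM (1.69 to 820.5) in intact and 2.38 CPM (0.157 to 88.3) in GDX mice, and their part in the result was not tested. The 2 comparisons were set against each other with an interaction term: no member was called (edgeR, 0 of 9, against 5.60% of all genes; 1, Per3, at an unadjusted p under 0.05, and 0 by DESeq2). The difference of the changes for Per3 was 0.41 ± 0.18 on the log2 scale, higher with castration (adjusted p = 0.155), and for Nr1d2 0.38 ± 0.20 (adjusted p = 0.236).

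In intact mice, the gonadal comparison (Ov against Te, 12 against 12) asked whether the clock genes stood at different levels under ovaries and testes. Per3 was 1.33-fold higher with ovaries (47.8 ± 13.7 CPM against 35.99 ± 9.15 CPM, log2 difference 0.41 ± 0.13, adjusted p = 0.0150) and Arntl 1.5-fold lower (1.79 ± 0.666 CPM against 2.72 ± 1.07 CPM, -0.58 ± 0.19, adjusted p = 0.0218). Their ranges overlapped: 3 Ov mice lay above every Te mouse for Per3, and 5 Ov mice below every Te mouse for Arntl. The Arntl call was lost without XY Te Intact replicate 4 (adjusted p = 0.0584) and with library totals, and neither call was made when the 24 intact mice were fitted alone (edgeR adjusted p = 0.104 for Per3, and 0.0535 at most for Arntl over these alternatives). The share of members called, 2 of 9, stood beside 25.3% of all genes. Nr1d2 (log2 difference 0.33 ± 0.14, adjusted p = 0.0713) and Nr1d1 (-0.43 ± 0.19, adjusted p = 0.0853) did not pass. Of the Kupffer cell and macrophage markers 3 of 5 were called, all higher with ovaries, with summed levels of 219.6 to 722.1 CPM (median 411.2) in Ov Intact and 170.4 to 485.1 CPM (median 243.8) in Te Intact mice. Of the lymphocyte markers 3 of 5 were called, all higher with ovaries, at 2.52 to 11.6 CPM (median 4.87) against 0.847 to 6.35 CPM (median 2.45), and no marker of either list was at 0 in all mice of a gonad type. Multimapping reads made up 11.0% to 18.9% of XY Te Intact libraries and 10.7% to 14.4% of the other intact ones, and unmapped reads 8.42% to 16.5% and 6.99% to 11.0%. Their part in the result was not tested. Among the 4 intact groups jointly, Arntl was called (adjusted p = 0.0154, the lowest and highest group means 1.076 apart on the log2 scale) and Per3 missed (adjusted p = 0.0528), against 27.0% of all genes.

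After GDX, mice that had carried ovaries or testes were not told apart by any member (edgeR, 0 of 9 called, 0 at an unadjusted p under 0.05, 0 by DESeq2; 0.0908% of all genes called). The log2 differences (former Ov minus former Te) ran from -0.22 ± 0.19 for Arntl to 0.01 ± 0.14 for Per2, and the 95% intervals reached from -0.58 to 0.15 for Arntl, from -0.25 to 0.24 for Per3 and from -0.17 to 0.15 for Tef. In the joint test of the 4 GDX groups only Arntl passed (adjusted p = 0.0365), against 23.5% of all genes, and 9 of the 48 fits that left out 1 mouse lost it.

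Between XX and XY mice (24 against 24), Hlf was 1.16-fold higher in XX mice (log2 difference 0.21 ± 0.07, edgeR adjusted p = 0.0171). It was the 1 member called, beside 36.7% of all genes. The call was lost with library totals and with no filter on low counts. It was also lost without XY Te Intact replicate 3 or XY Ov Intact replicate 6 (adjusted p up to 0.0891 without 1 mouse). In GDX mice Hlf had lowest, median and highest values of 105.9, 114.6 and 121.8 CPM in XX and 74.4, 94.8 and 114.2 CPM in XY mice (n = 12 each), with 7 XX mice above every XY mouse and 9 XY mice below every XX mouse. In GDX mice Hlf (0.26 ± 0.10, adjusted p = 0.0416) and Arntl (0.49 ± 0.19, adjusted p = 0.0349) were called, 2 of 9 beside 34.3% of all genes. In intact mice none was (edgeR, 0 of 9; 0 at an unadjusted p under 0.05; 0 by DESeq2; 10.7% of all genes), with Hlf at 0.16 ± 0.10. The difference between the chromosomal comparisons of GDX and intact mice was itself not called for any member (0 of 9, 0 at an unadjusted p under 0.05, 0 by DESeq2; 2.12% of all genes; Arntl 0.54 ± 0.27, adjusted p = 0.363). The Hlf and Arntl calls in GDX mice were lost under library totals, DESeq2 size factors and both other filters, and that of Hlf also with DESeq2 in place of edgeR. Kupffer cell and macrophage markers differed alongside, with summed levels of 112.0 to 485.1 CPM in XX and 223.9 to 743.6 CPM in XY mice. Neutrophil markers summed to 0.157 to 29.1 CPM in XX and 1.14 to 820.5 CPM in XY mice. Their part in the result was not tested.

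Mice of the same group also differed from each other, and more so in the intact cohort. The SD of log2 CPM within groups was 0.63 for Nr1d1 in intact and 0.31 in GDX mice, 0.48 and 0.15 for Nr1d2, 0.47 and 0.21 for Per2, 0.40 and 0.20 for Per3, and 0.33 and 0.14 for Hlf. Dbp kept nearly the same spread, at 0.26 and 0.28, and Arntl was close at 0.46 and 0.42. Tested on the absolute deviations of single mice from their group means (limma), 6 of 9 members were wider in intact mice (Hlf, Nr1d1, Nr1d2, Tef, Per3 and Per2, adjusted p of 0.0306 or less), beside 44.1% of all genes. The median SD over all tested genes was 0.39 in intact and 0.21 in GDX mice, so Nr1d1 and Per1 (0.56 and 0.42) stood above it in both cohorts and Tef (0.23 and 0.15) below it. Differences between groups accounted for 80.0% of the variance of Per3, 76.4% of Nr1d2 and 71.3% of Per2, against 17.4% of Dbp and 26.6% of Nr1d1, with a median of 53.5% over all genes.

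**Figure D3:**
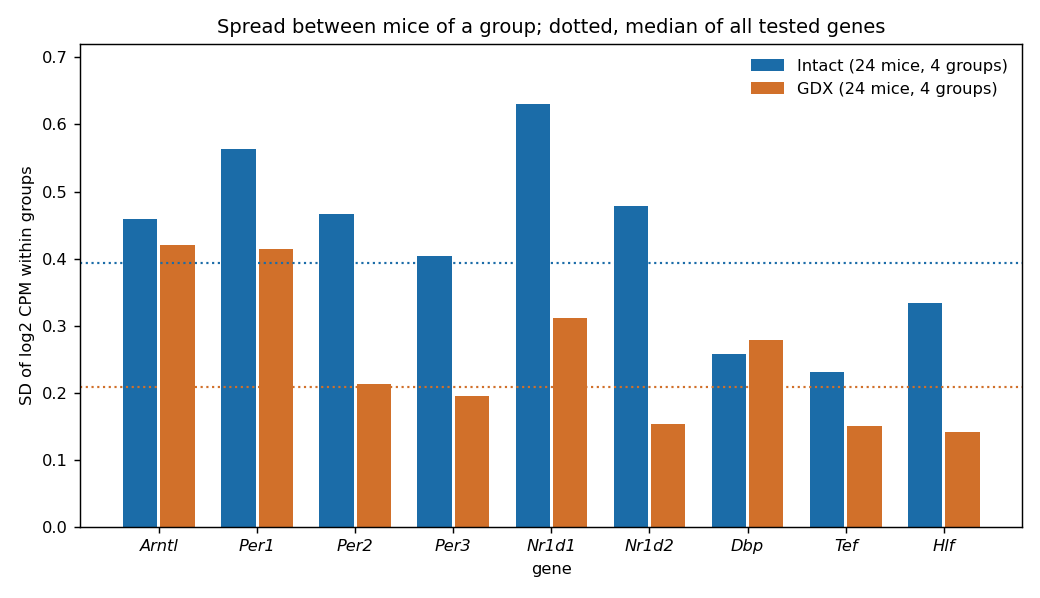
SD of log2 CPM between mice of the same group (vertical axis), pooled over the 4 intact groups (blue) and the 4 GDX groups (orange), for the 9 tested genes; dotted lines mark the median of all tested genes in each cohort. Nr1d1 has the tallest blue bar at 0.63, and Dbp is nearly level at 0.26 and 0.28.

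Single mice set these ranges (chosen after their values were seen). In XX Te GDX, replicate 3 had the highest Arntl of the study at 7.06 CPM together with the lowest Dbp (29.5 CPM) and, among GDX mice, the lowest Per2 (37.1 CPM) and Tef (162.0 CPM). Replicate 5 of the same group had Arntl at 1.97 CPM with the highest Dbp (66.7 CPM), Tef (268.3 CPM) and, among GDX mice, Nr1d2 (138.5 CPM) and Nr1d1 (56.0 CPM). Both mice had the same genotype and treatment. In XY Te Intact, replicate 3 had the lowest Per1 (7.47 CPM), Per3 (24.3 CPM) and Tef (139.8 CPM) of the study, with Arntl at 4.16 CPM.

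Whether such departures ran in step across genes was measured on the deviations of the 48 mice from their group means, over all 45 pairs of members, with a permutation test within groups (two-sided, 100000 resamples, Benjamini-Hochberg adjustment over the 45 pairs). By Pearson's r, 19 pairs were called, 17 positive and 2 negative, and by Spearman's rho also 19. The share of called pairs among all tested genes was not computed, so nothing particular to the members is read from this count. Per1, Per2, Per3, Dbp, Tef and Hlf formed 15 pairs, all called and all positive, with r from 0.40 to 0.85. These 6 genes were grouped after the correlations were seen, so that all 15 were called is a description. Without the 2 mice farthest from the median, r ran from 0.43 to 0.84. The tightest pair was Per3 and Tef (r = 0.85, adjusted permutation p = 5.62e-05; rho = 0.83, adjusted permutation p = 9e-05; raw p 1e-05, the smallest the resamples can give), at 0.88 within intact and 0.77 within GDX mice. Per1 and Dbp was the loosest of them (r = 0.40, adjusted permutation p = 0.0400; rho = 0.34, adjusted p = 0.0754). Within cohorts the 15 values ran from 0.50 to 0.88 in intact and from 0.21 to 0.80 in GDX mice. Nr1d1 went with Dbp (r = 0.65, rho = 0.66, adjusted permutation p = 9e-05 and 0.0001), at 0.70 in intact and 0.69 in GDX mice. On the TMM scale its pair with Tef was not called (r = 0.18, rho = 0.21, adjusted permutation p = 0.380 and 0.314). This depended on the scaling. With library totals Nr1d1 was called with Tef (r = 0.46, adjusted permutation p = 0.0323), Hlf (0.52, 0.0289) and Per3 (0.44, 0.0492).

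Arntl deviated against the Per genes, Dbp, Tef and Hlf on the TMM scale, and this depended on the scaling. Its r with each of these 6 genes was below 0 in both cohorts, from -0.40 to -0.01 in intact and from -0.78 to -0.18 in GDX mice. Only the pair with Tef was called (r = -0.48, rho = -0.38, adjusted permutation p = 0.00956 and 0.0480; -0.41 without the 2 farthest mice), and with library totals in place of TMM its r was -0.13 (adjusted permutation p = 0.577). With library totals the intact values turned positive for Dbp (0.30), Hlf (0.07), Tef (0.04) and Per2 (0.00), while the GDX values stayed below 0, from -0.71 to -0.12. For Dbp on the TMM scale the pooled r was -0.39 (rho = -0.29, adjusted permutation p = 0.0531 and 0.136), made up of -0.01 in intact and -0.78 in GDX mice, and it was -0.26 without the 2 farthest mice. With Nr1d1 the pooled r of Arntl was 0.12 (rho = 0.12, adjusted permutation p = 0.508 and 0.549), made up of 0.36 in intact and -0.39 in GDX mice. Arntl and Npas2, the 2 activators, were called as a positive pair (r = 0.40, rho = 0.38, adjusted permutation p = 0.0420 and 0.0480). Their r was 0.38 in intact and 0.42 in GDX mice, although Npas2 rests on 12 reads or fewer. With library totals the call was kept (r = 0.45, adjusted permutation p = 0.0139). It was lost with a prior count of 0.5 (r = 0.31, adjusted permutation p = 0.103). Without XX Te Intact replicate 5 (47 mice) it was lost too (r = 0.38, adjusted permutation p = 0.063).

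Nr1d2 behaved differently in the 2 cohorts. In intact mice its r with all 9 other members was negative, and with the 7 members other than the activators it ran from -0.71 to -0.33. In GDX mice those 7 were all positive, from 0.42 to 0.76. Pooled over cohorts and by Pearson's r, only its pair with Nr1d1 was called (r = -0.55, rho = -0.45, adjusted permutation p = 0.00956 and 0.0306), and its sign differed between cohorts, at -0.71 in intact and 0.42 in GDX mice. By rho its pair with Npas2 was called too (-0.38, adjusted permutation p = 0.0400). With library totals all 7 values kept these signs in both cohorts. With Per3 the values were -0.36 and 0.75, and with Tef -0.33 and 0.76. The difference in r between cohorts was not tested. In intact mice (24 libraries, a description) the deviations of Nr1d2 also went with the shares of multimapping (r = 0.68) and unmapped reads (r = 0.59). In GDX mice these were -0.31 and -0.00. The other members went the other way in intact mice, from -0.55 for Nr1d1 to -0.01 for Arntl with multimapping reads. With unmapped reads they ran from -0.48 for Dbp to -0.15 for Npas2. In intact mice the 6 genes of the positive block went with the share of reads outside genes, with r from 0.40 for Dbp to 0.64 for Per1, and in GDX mice these values ran from -0.07 for Hlf to 0.42 for Per1. For Nr1d2 they were -0.61 and 0.29. The part of these shares in the results was not tested.

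**Figure D4:**
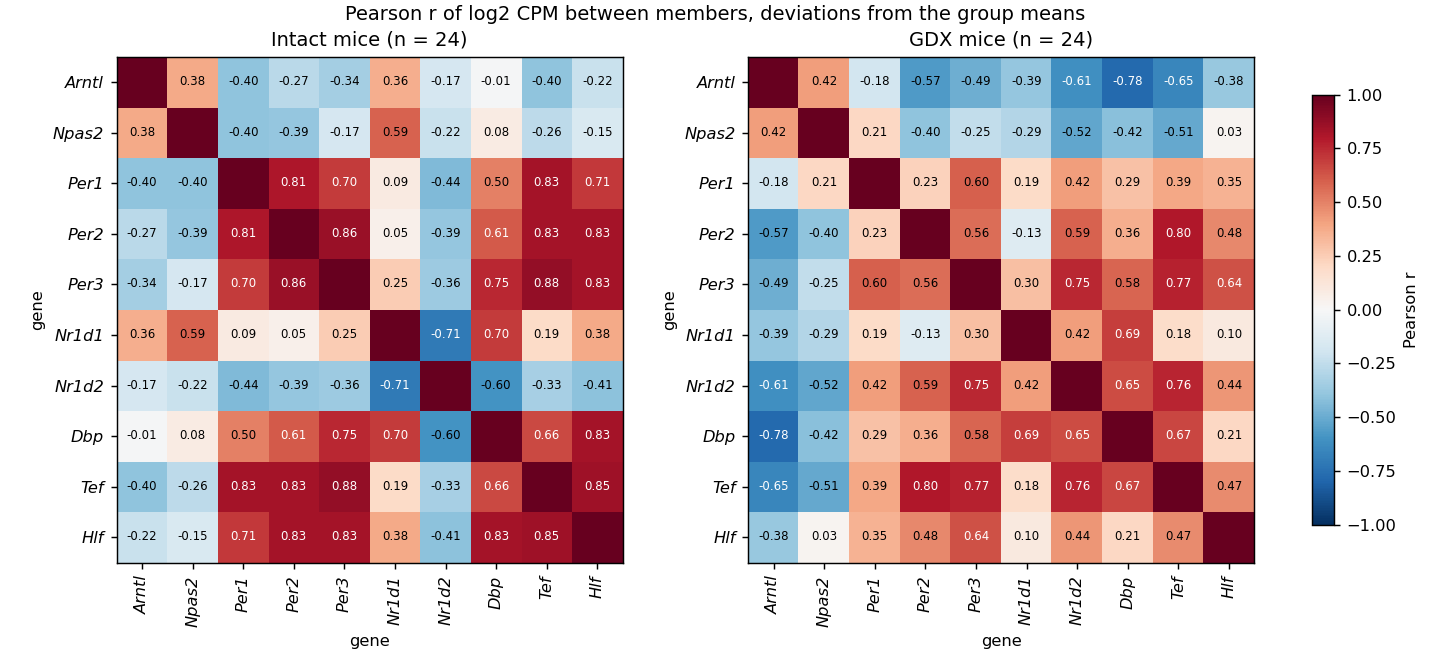
Pearson r between members (both axes list the 10 genes) of log2 CPM deviations from group means, in 24 intact mice (left) and 24 GDX mice (right); red is positive, blue negative, and each cell prints its r. The Nr1d2 row is blue throughout on the left (down to -0.71 with Nr1d1) and mostly red on the right (up to 0.76 with Tef).

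**Figure D5:**
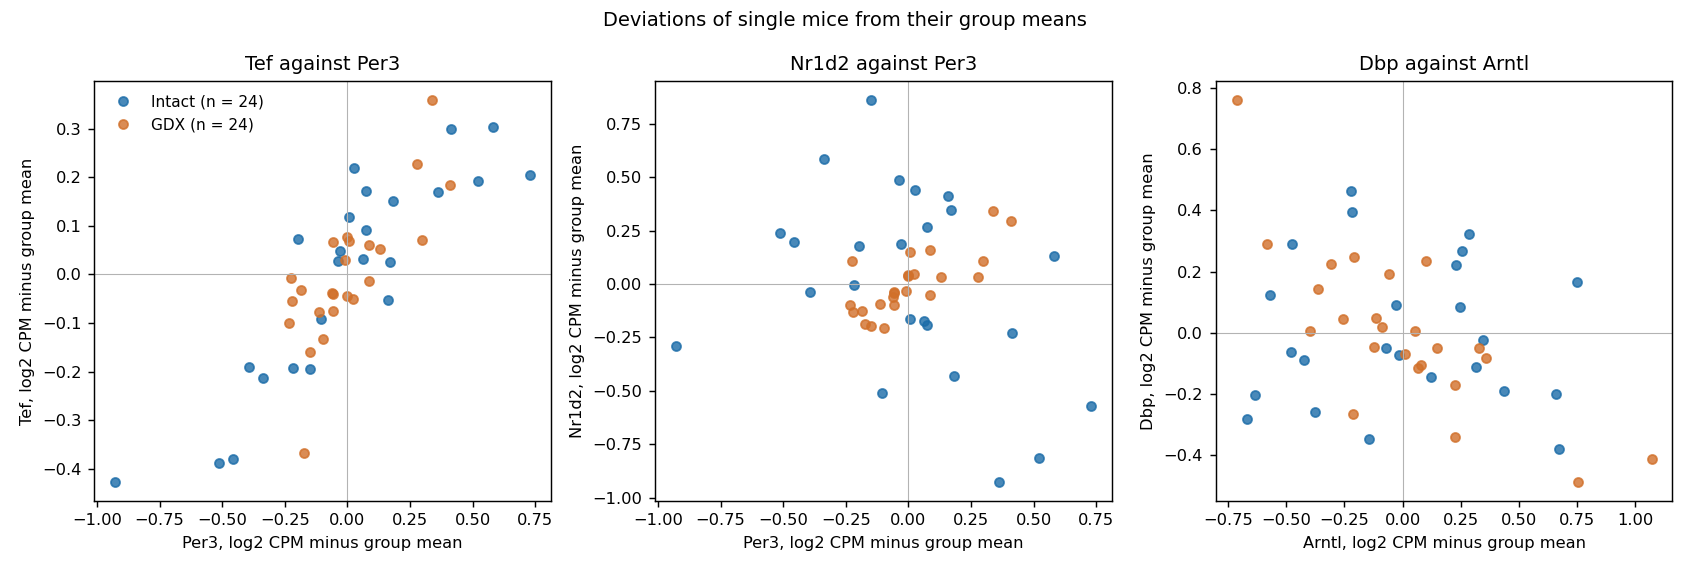
Deviation of single mice from their group means in log2 CPM, intact in blue and GDX in orange (24 each): Tef against Per3, Nr1d2 against Per3, and Dbp against Arntl. Tef follows Per3 in both cohorts (0.88 and 0.77), Nr1d2 only in GDX mice (0.75, against -0.36), and Dbp runs against Arntl in GDX mice (-0.78).

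A clock index was formed as the mean log2 CPM of Arntl and Npas2 minus that of Nr1d1, Dbp and Per3. It is given as a description with no test, since its genes were chosen with earlier results of these data known. Its activator term also leans on Npas2, which is near the floor. Its group means were -5.83 ± 0.60, -5.41 ± 0.32, -5.80 ± 0.44 and -5.45 ± 0.62 in XX Ov, XX Te, XY Ov and XY Te Intact, and -6.21 ± 0.46, -5.48 ± 0.81, -6.17 ± 0.41 and -6.32 ± 0.55 in the same order after GDX (SD, n = 6 each). The ranges of all 8 groups overlapped. The highest single values were XX Te GDX replicate 3 (-4.28) and XY Te Intact replicate 3 (-4.43), and the lowest was XY Te GDX replicate 4 (-7.12).

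The genes whose deviations were most like those of a member were listed by Pearson r over the 48 mice, among tested genes other than the members whose log2 CPM averaged 0 or more, and are a description. Near to Arntl were Cdkn1a (r = 0.62), the cell cycle inhibitor p21, Pdk4 (0.54), the fasting-induced pyruvate dehydrogenase kinase, Nedd4l (0.54) and Ick (0.54). Farthest from it were Narf (-0.62), Hes6 (-0.60), Shpk (-0.59), AI317395 (-0.58) and Slc37a4 (-0.57), the glucose-6-phosphate transporter. For Dbp they were Npc1 (0.71), the lysosomal cholesterol transporter, Slc2a9 (0.71), a urate transporter, Vwce (0.70), Tbcel (0.70) and Dclk3 (0.70). For Per1 they included Tob2 (0.87), Cebpb (0.76), Il6ra (0.75) and Mast3 (0.74), among which Cebpb encodes an acute-phase regulator and Il6ra the IL-6 receptor.

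The other genes of the loop, 13 of them, were read from a list. With ovariectomy 9 were called (6 higher, 3 lower) and with castration 9 (5 higher, 4 lower), beside 69.4% and 63.3% of all genes. Bhlhe41, which encodes the repressor DEC2, fell with castration (log2 change -2.15 ± 0.20, adjusted p = 9.18e-12) and with ovariectomy (-1.22 ± 0.21, adjusted p = 3.26e-06). Timeless rose (0.78 ± 0.11 and 0.75 ± 0.11), Cry2, a repressor that pairs with the PER proteins, rose less (0.36 ± 0.11 and 0.57 ± 0.11), and Clock, the partner of ARNTL, fell (-0.56 ± 0.07 and -0.30 ± 0.07). In the gonadal comparison Clock, Rora and Bhlhe41 were lower with ovaries (3 of 13, or 23.1%, beside 25.3% of all genes), and in the chromosomal one 3 of 13 were higher in XX mice, Bhlhe40 and Rora among them, beside 36.7% of all genes. The 13 genes had 0 calls for the former gonad.

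Of 12 clock-controlled output genes of liver, 7 were called with ovariectomy (4 higher, 3 lower) and 7 with castration (4 higher, 3 lower), in each case 58.3%, beside 69.4% and 63.3% of all genes. The cytochrome P450 reductase gene Por rose in both (0.78 ± 0.14 and 0.90 ± 0.14), Upp2, for uridine phosphorylase, fell in both (-1.73 ± 0.25 and -0.61 ± 0.25), and Nampt, the NAD salvage enzyme, fell in both (-1.21 ± 0.19 and -0.50 ± 0.19). Elovl3, a fatty acid elongase, was lower with ovaries in intact mice (-4.58 ± 0.28, adjusted p = 4.65e-17) and fell with castration (-4.71 ± 0.28). Of 12 fasting and glucocorticoid responsive genes, 8 were called with ovariectomy (4 higher, 4 lower) and 4 with castration (1 higher, 3 lower), which is 66.7% and 33.3% beside the same 69.4% and 63.3%. The fasting hormone gene Fgf21 fell in both (-1.05 ± 0.35 and -1.20 ± 0.35) and Ppargc1a, the gluconeogenic coactivator, rose in both (0.32 ± 0.10 and 0.63 ± 0.10). In the chromosomal comparison 6 of these 12 were called (beside 36.7% of all genes), all higher in XX mice, led by Pdk4 (1.17 ± 0.18), Fgf21 (1.08 ± 0.25) and G6pc (0.64 ± 0.14). Of 6 tested temperature and heat shock genes, 5 were called with ovariectomy (3 higher, 2 lower) and 4 with castration (1 higher, 3 lower), which is 83.3% and 66.7% beside 69.4% and 63.3% of all genes. The cold-inducible Rbm3 fell in both (-1.44 ± 0.21 and -0.77 ± 0.21) and Cirbp rose in both (0.29 ± 0.07 and 0.17 ± 0.07).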

How the data were processed

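RNA was isolated from snap-frozen liver and libraries were made with the KAPA mRNA HyperPrep kit, 1 library per mouse. The deposited values are whole-number read counts per Ensembl gene, which the authors made by aligning reads to GRCm39 with STAR 2.7.10a; annotation release and strand setting are not given in the sources used here. Of 55414 genes, 31020 (56.0%) were matched to a symbol, and 4 summary rows were left out. The count of each gene was filtered with filterByExpr, scaled by TMM and fitted with edgeR 4.0.16 (robust glmQLFit, 8 group means, 48 mice) under R 4.3.3. Log2 CPM used a prior count of 2. The spread between mice was tested with limma 3.58.1, and pairs of genes with 100000 permutations within groups. DESeq2 1.42.0 and sva 3.50.0 served the alternatives, as did other scalings and filters and the fits without 1 mouse; their effect is given in the closing section. On simulated counts for the castration comparison (15018 genes), 187 of 200 changed genes were recovered with 10 false calls, 40 of 50 at 1.5-fold. Only these 200 genes were changed, whereas 63.3% of all genes were called in the data, a setting the simulation does not cover. For the spread test, 200 of 15031 genes were given 9 times the dispersion in intact mice. Of these, 163 were recovered, with 23 false calls. With no change of spread there were 0 false calls.

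The 10 members are all named; other genes come from 4 lists (other clock genes, output genes, fasting and glucocorticoid genes, heat shock genes) by counts with up to 3 called genes per direction and comparison by size of change, and the 5 genes most like Arntl, Dbp and Per1, and least like Arntl. Some genes that this rule would name are not reported here. The members and lists were chosen with earlier results of these data known. Replicates are numbered in accession order. Of 120 pairs of mice within groups, 0 agreed within sampling noise. The floor of 3 reads covers counting error only, while SEs and 95% intervals come from the fit and include the variation between mice.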

Additional observations from a re-analysis of the deposited data

Results flagged for a closer look

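In groups of 6 mice, 3 values lay far from the other 5 (by Dixon's test on log2 CPM). In all 80 groups were examined (10 genes in 8 groups) and chance gives about 1 in 20 such values. Per2 in XY Te Intact replicate 3 was lowest at 15.3 CPM, with the next mouse at 26.2 CPM. Hlf was lowest in the same mouse at 78.4 CPM, with the next at 98.2 CPM. Per3 in XX Ov GDX replicate 6 was highest at 98.7 CPM, with the next at 90.1 CPM.

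No member was called in the interaction test, but 4 genes of the 4 other lists were (edgeR, castration minus ovariectomy, log2 scale). They were Elovl3 at -4.42 (adjusted p = 1.37e-11), Cyp7a1, the rate-limiting enzyme of bile acid synthesis, at 1.62 (adjusted p = 0.00421), Upp2 at 1.12 (adjusted p = 0.0455) and Bhlhe41 at -0.94 (adjusted p = 0.0467). By list, 1 of 13 other clock genes and 3 of 12 output genes were called, beside 5.60% of all genes. Of the fasting and glucocorticoid genes 0 of 12 were called, and of the heat shock genes 0 of 6. Whether these calls hold in the alternative fits was not tested. The chromosomal difference of Elovl3 was larger after GDX than in intact mice by 1.81 (edgeR, adjusted p = 0.00975). It was the 1 of 12 output genes called there, beside 2.12% of all genes.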

How the results depend on the processing

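Among the 9 tested members and their tests, no direction reversed where a call was involved. The named genes of the other lists were not followed in the alternative fits. Per2, Per3 and Nr1d2 kept their calls with ovariectomy and castration in 8 of 8 alternatives and in all 48 fits without 1 mouse. Counts of members called that moved by over 1.5 times were as follows. With library totals in place of TMM they were 7 for ovariectomy (from 4), and 0 for the chromosomal comparison (from 1), for the chromosomal comparison in GDX mice (from 2), and for any difference among the 4 intact or the 4 GDX groups (from 1 each). With DESeq2 size factors and with at least 10 counts in every mouse they were 0 for the chromosomal comparison in GDX mice, 2 among intact groups and 0 among GDX groups. With no filter they were 0 for both chromosomal comparisons and among GDX groups. With only the compared groups they were 0 for the gonadal comparison, 0 among intact groups and 2 among GDX groups. With 1 surrogate variable they were 2 among intact groups, and with DESeq2 2 among intact groups and 1 for the chromosomal comparison in GDX mice. The castration count stayed at 6 or was 5 (library totals, no filter, 1 surrogate variable). Without 1 mouse in turn the counts ran from 1 to 4 for the gonadal, 0 to 2 for the chromosomal, 4 to 6 for the ovariectomy and 5 to 6 for the castration comparison, from 0 to 2 for the chromosomal comparison in GDX mice, from 0 to 3 among intact and 0 to 1 among GDX groups, and from 4 to 6 for the spread. The causes of these moves were not tested. The call of Tef with castration was kept in 38 of the 48 fits without 1 mouse, and those of Hlf and Arntl between XX and XY GDX mice in 31 and 36 of 48. Correlated pairs numbered 19, and 23 with library totals, 19 with 47 mice and 18 with a prior count of 0.5.

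Npas2 was tested only with no filter. The fit of only the compared groups gives nothing new where all 8 groups are compared. No paired analysis was possible because the labels give no replicate numbers shared between groups. Intact and GDX mice differ in age, diet duration and library make-up as well as gonads, which cannot be told apart. With 15 to 135 reads a mouse, Arntl had the fewest reads of the tested members.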
